A study of Mus musculus with 6 samples.

Results

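Complement is a cascade of plasma proteins, receptors and regulators that tags microbes and dying cells and recruits phagocytes to them. The liver is the main source of the plasma components, which hepatocytes secrete, whereas tissue macrophages, in the liver the Kupffer cells, make the recognition protein C1q and carry receptors for complement fragments. Properdin, which steadies the convertase of the alternative pathway, comes from myeloid cells.

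The 31 genes described here are complement components, regulators and receptors, chosen by name, and all 31 were found among the 17119 gene symbols counted. They were divided by the cells known to make them into 6 macrophage-made genes (the C1q chains C1qa, C1qb and C1qc, properdin Cfp, and the anaphylatoxin receptors C3ar1 and C5ar1), 22 hepatocyte-made genes and 3 of other or broad source (Cfd, Cd55 and Cd59a). RNA was sequenced from unfractionated livers of mice kept for 12 weeks on HFHCD, a diet rich in fat and cholesterol that brings on a fatty, inflamed liver. The heterozygous livers (labelled Hete, n = 3) came from mice with the genotype Clec4f-iCre;Cebpbfl/+, in which iCre, driven by the Kupffer cell gene Clec4f, removes 1 copy of Cebpb from Kupffer cells and leaves the hepatocyte copies in place. The wild-type livers (WT, n = 3) came from littermates of genotype Clec4f-iCre;Cebpb+/+, so the iCre and the diet were shared by all 6. Age and sex are not given in the labels, and for replicates 2 and 3 the driver is written Clec5f and Clec6f in the labels, where the series design has Clec4f. The labels do not say that each sample came from its own animal, and the p-values thus rest on differences among these 6 samples, which may be technical.

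Library totals ran from 16895322 to 17149924 counts in heterozygous livers and from 17665622 to 17750755 counts in wild-type livers. All 31 genes passed the filter on low counts, and the least abundant had at least 21 counts in every library. Levels are CPM, counts scaled to a common library size with TMM factors. Fold changes are log2, heterozygous over wild-type, ± SE, from edgeR's quasi-likelihood test, with p-values adjusted over all 12706 tested genes and a threshold of 0.05. The targeted gene Cebpb had 204, 498 and 269 CPM in heterozygous livers and 506, 308 and 340.4 CPM in wild-type livers, with overlapping groups, and whole liver also holds the Cebpb RNA of cells without the deletion. The hepatocyte marker Alb took 7.44% to 9.30% of counts in heterozygous and 6.89% to 8.50% in wild-type libraries. Kupffer cell markers were detected at a summed 349 to 385 CPM in heterozygous and 474 to 746 CPM in wild-type livers. In whole tissue, fewer macrophages and less RNA per macrophage cannot be told apart.

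The complement genes called in heterozygous livers were macrophage-made. The macrophage-made genes lay at 0.43 to 0.48 of the wild-type level, and C1qa and C1qb passed the threshold, whereas no hepatocyte-made gene did. Of the 31 genes, 2 were called lower and 0 higher in heterozygous livers; over all tested genes 0.559% were called lower and 0.0236% higher. The median log2 fold change was −1.15 over the 6 macrophage-made genes, −0.03 over the 22 hepatocyte-made genes, 0.12 over the other 3, and 0.0048 over all tested genes. Heterozygous and wild-type libraries did not overlap for any of the 6 macrophage-made genes, against 3 of the 22 hepatocyte-made genes (13.6%) and 11.3% of all tested genes with the heterozygous group lower. The hepatocyte-made share is thus near the background. The contrast between the classes was not tested as a score over the genes, since they were chosen with results of these data known.

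**Figure D1:**
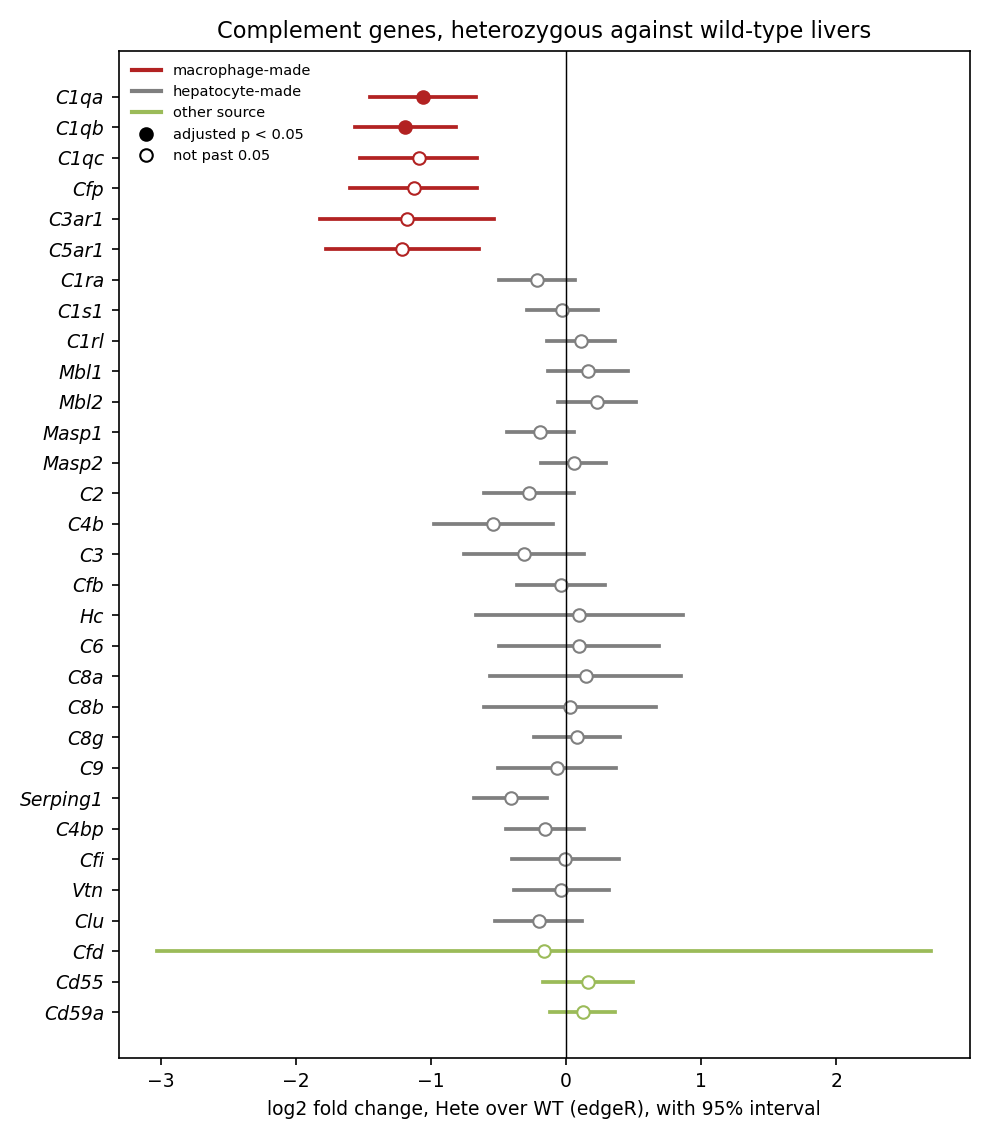
Log2 fold change of each of the 31 complement genes, heterozygous over wild-type livers, with its 95% interval from edgeR (n = 3 per group); filled points passed an adjusted p of 0.05. The 6 macrophage-made genes sit between −1.21 and −1.06, and the 22 hepatocyte-made genes between −0.54 and 0.23.

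C1q is the recognition protein of the classical pathway, built of A, B and C chains that each carry a collagen-like stalk and a globular head. C1qa, which encodes the A chain, measured 43.7, 45.5 and 59.2 CPM in heterozygous livers and 92.0, 127 and 89.8 CPM in wild-type livers. The highest heterozygous library lay below the lowest wild-type library, and C1qa fell 2.08-fold (log2 fold change −1.06 ± 0.17, edgeR adjusted p = 0.0489). C1qb, for the B chain, measured 53.3, 57.4 and 66.1 CPM in heterozygous livers and 112, 168 and 123 CPM in wild-type livers. It fell 2.28-fold (−1.19 ± 0.17, edgeR adjusted p = 0.0324), again with no overlap, and its p was the 20th smallest of all tested genes. C1qc, for the C chain, measured 54.3, 57.2 and 71.9 CPM in heterozygous livers and 107, 168 and 116 CPM in wild-type livers, a log2 fold change of −1.09 ± 0.19. The C chain gene lay just outside the threshold (edgeR adjusted p = 0.0516) and the A chain gene just inside it, so the difference in their calls is not a difference between the genes.

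The proportions of the chains stayed in narrow ranges. Per kilobase of the longest coding transcript, the A chain made up 30.4% to 32.1% of C1q RNA in heterozygous and 29.2% to 31.6% in wild-type livers. The B chain made up 34.3% to 36.6% in heterozygous and 36.8% to 38.2% in wild-type livers, and the C chain 33.0% to 33.7% in heterozygous and 31.6% to 33.5% in wild-type livers. The B chain share was thus lower in every heterozygous library than in every wild-type library, a difference that was not tested, while the A and C chain shares overlapped. On that per-length scale the level of C1q RNA was 47.6 (A), 54.2 (B) and 50.8 (C) CPM per kb in heterozygous livers and 99.1, 123 and 108 CPM per kb in wild-type livers. The genes also lie side by side: in RefSeq no other coding gene stands between C1qb, C1qc and C1qa on chromosome 4.

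**Figure D2:**
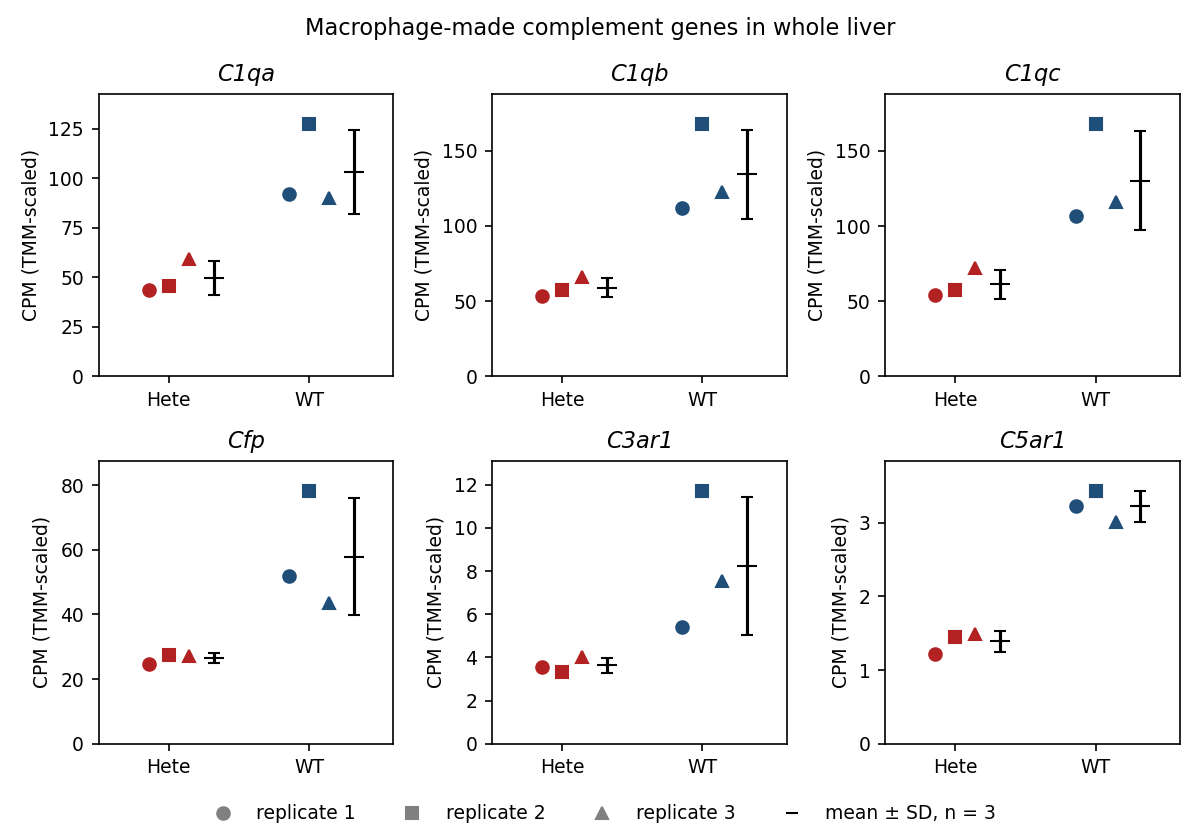
TMM-scaled CPM of the macrophage-made complement genes in each library (points, by replicate), with the mean and SD of 3 libraries (bar). In every panel the heterozygous libraries lie below all wild-type libraries, and wild-type replicate 2 is the highest.

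Properdin, encoded by Cfp, measured 24.7, 27.5 and 27.1 CPM in heterozygous livers and 51.8, 78.1 and 43.4 CPM in wild-type livers. The groups did not overlap, and the log2 fold change was −1.13 ± 0.21 (edgeR adjusted p = 0.0539), outside the threshold. C3ar1, the receptor for the C3a fragment, measured 3.55, 3.33 and 4.01 CPM in heterozygous livers and 5.43, 11.7 and 7.55 CPM in wild-type livers (−1.18 ± 0.28, edgeR adjusted p = 0.0990). C5ar1, the receptor through which C5a attracts and activates phagocytes, had few counts, 21 to 26 per heterozygous library and 53 to 63 per wild-type library. It stood at 1.22, 1.45 and 1.49 CPM in heterozygous and 3.23, 3.43 and 3.01 CPM in wild-type livers (−1.21 ± 0.25, edgeR adjusted p = 0.0639). Both receptors therefore had no overlap between groups but no call in edgeR.

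The number of calls among these 6 genes turned on the test and on single libraries. DESeq2 called all 6 lower, at a rule by which 3.56% of all tested genes were called lower, whereas edgeR without wild-type replicate 1, 2 or 3, or without heterozygous replicate 1 or 2, called 0 of them and without heterozygous replicate 3 called C1qa and C1qb. The share of all tested genes called lower was 0.829% without heterozygous replicate 3, 0% without heterozygous replicate 1 or 2, and 0.031%, 0.0467% and 0.148% without wild-type replicate 1, 2 and 3. In the other fits of the closing section it was 0.378% (RLE scaling), 0.283% (upper quartile), 1.14% (no filter), 0.39% (1 CPM filter), 0.354% (limma-voom), 0% (limma-voom without robust moderation), 0.157% (non-robust), 0% (replicate block), 2.3% (threshold 0.1), 2.06% (acute phase covariate) and 0.0313% (wild-type replicate 1 and heterozygous replicate 2 both out). Over the 6 fits that each left out 1 library, the log2 fold change of C1qb stayed between −1.28 and −0.99. That of C1qa stayed between −1.21 and −0.87 and that of Cfp between −1.30 and −0.84. In wild-type replicate 2 each of the 6 genes had its highest level.

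General macrophage genes moved with C1q. Of 10 macrophage markers, all tested, 4 fell (Lyz2, Laptm5, Fcgr1 and Cd68), 0 rose and all 10 had a negative fold change, with a median of −1.28; their summed level was 299 to 404 CPM in heterozygous and 597 to 982 CPM in wild-type livers. Of 12 Kupffer cell markers 11 were tested, 1 fell (Il18bp) and 0 rose. Among these 11, 10 had a negative fold change and 1 a positive one (Folr2, 0.41 ± 0.42), with a median of −0.58. Of 9 neutrophil markers, which matter for Cfp and C5ar1 because neutrophils express both, 5 were tested and 1 fell (Csf3r). The neutrophil sum was 8.68 to 12.4 CPM in heterozygous and 24.3 to 33.2 CPM in wild-type livers, and Ly6g, a defining marker, was at 0 in every heterozygous library and at most 0.0610 CPM in wild-type ones. Of 7 dendritic cell markers, all tested, 0 passed, and their sum was 11.5 to 19.7 CPM in heterozygous and 23.2 to 25.5 CPM in wild-type livers. The part of these cells in the complement differences was not tested.

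Set against macrophage RNA, C1q overlapped between the groups. The log2 ratio of C1q counts (3 chains summed) to the summed counts of Cd68, Csf1r and Adgre1 was 1.10, 0.89 and 1.29 in heterozygous livers and 1.15, 0.57 and 0.96 in wild-type livers. The means were 1.09 ± 0.20 in heterozygous and 0.89 ± 0.29 in wild-type livers (SD, n = 3 each), a difference of 0.20. Single libraries moved that difference: it was 0.30 without heterozygous replicate 2, 0.0963 without heterozygous replicate 3, 0.32 without wild-type replicate 1 and 0.0365 without wild-type replicate 2. Against Cd68 alone, a lysosomal membrane protein gene of macrophages, the means were 3.43 ± 0.13 in heterozygous and 3.49 ± 0.14 in wild-type livers. Against Adgre1, the F4/80 gene, they were 3.60 ± 0.52 and 3.29 ± 0.77, and against Csf1r, the receptor that keeps macrophages alive, 1.78 ± 0.20 and 1.56 ± 0.23. The same ratio to the 3 markers summed gave −1.58 ± 0.07 in heterozygous and −1.80 ± 0.31 in wild-type livers for Cfp, and −4.45 ± 0.22 and −4.64 ± 0.13 for C3ar1, with overlap in each case. Clec4f measured 4.31, 4.97 and 3.90 CPM in heterozygous and 48.6, 38.5 and 5.42 CPM in wild-type livers. The groups did not overlap, and the log2 fold change was −2.81 ± 0.85 (edgeR adjusted p = 0.260). Wild-type replicate 3 thus had a Clec4f level close to heterozygous livers, while its C1qb level of 123 CPM lay between those of wild-type replicates 1 and 2.

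**Figure D3:**
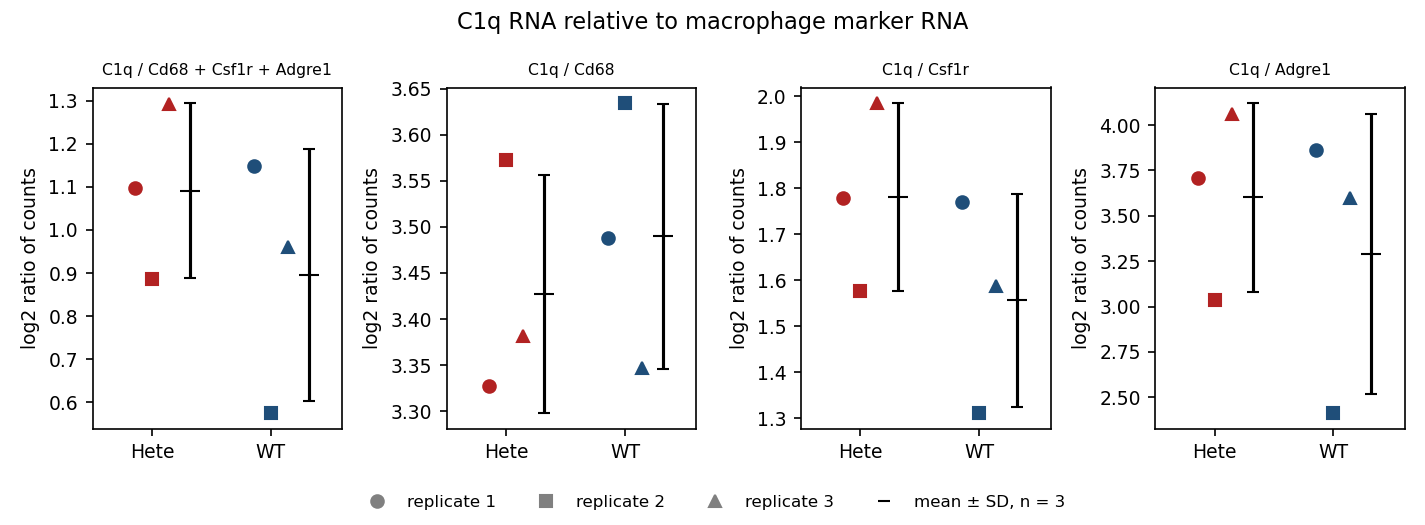
Log2 ratio of C1q counts (C1qa, C1qb and C1qc summed) to macrophage marker counts in each library, for the 3 markers summed and for each alone, with mean and SD of 3 libraries; the vertical axes differ and do not start at 0. The groups overlap in each panel, and the means differ by 0.20, −0.06, 0.22 and 0.31.

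Promoters of genes on both sides of the split are shown because the macrophage-made genes moved together and the targeted factor belongs to the C/EBP family. The sequences are from RefSeq (GRCm38.p6) and run from 250 bases before to 50 bases after the transcript start; 23 of the 31 genes had an entry. Capitals mark GAGGAA, the core of sites for the myeloid factor PU.1, or TTGCNNAA, a C/EBP consensus, each searched on both strands.
C1qb, chr4:136886151-136886450, minus strand: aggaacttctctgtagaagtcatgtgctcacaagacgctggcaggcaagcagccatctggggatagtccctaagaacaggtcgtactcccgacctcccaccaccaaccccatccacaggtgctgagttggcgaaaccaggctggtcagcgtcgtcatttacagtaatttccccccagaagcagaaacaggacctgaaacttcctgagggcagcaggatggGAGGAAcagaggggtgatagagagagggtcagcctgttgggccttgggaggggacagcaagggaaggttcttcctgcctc
C1qc, chr4:136892865-136893164, minus strand: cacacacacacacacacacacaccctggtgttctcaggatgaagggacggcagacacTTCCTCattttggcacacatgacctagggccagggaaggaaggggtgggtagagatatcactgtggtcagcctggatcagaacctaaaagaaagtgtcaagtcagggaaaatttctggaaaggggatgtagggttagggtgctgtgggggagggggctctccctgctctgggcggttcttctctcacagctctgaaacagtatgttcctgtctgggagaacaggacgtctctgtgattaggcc
Cfp, chrX:20931506-20931805, minus strand: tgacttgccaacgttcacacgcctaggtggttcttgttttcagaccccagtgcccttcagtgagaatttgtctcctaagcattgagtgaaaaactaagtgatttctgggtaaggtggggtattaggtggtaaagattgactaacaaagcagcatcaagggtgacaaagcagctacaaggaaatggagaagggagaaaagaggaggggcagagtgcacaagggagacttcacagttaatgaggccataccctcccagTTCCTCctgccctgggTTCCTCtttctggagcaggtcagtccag
C3, chr17:57228087-57228386, minus strand: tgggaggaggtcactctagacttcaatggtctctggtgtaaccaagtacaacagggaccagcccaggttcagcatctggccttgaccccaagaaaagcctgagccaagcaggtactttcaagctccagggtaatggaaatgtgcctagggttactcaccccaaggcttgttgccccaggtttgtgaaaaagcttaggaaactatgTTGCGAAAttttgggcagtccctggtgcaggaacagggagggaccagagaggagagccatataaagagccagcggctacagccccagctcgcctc
C9, chr15:6445096-6445395, plus strand: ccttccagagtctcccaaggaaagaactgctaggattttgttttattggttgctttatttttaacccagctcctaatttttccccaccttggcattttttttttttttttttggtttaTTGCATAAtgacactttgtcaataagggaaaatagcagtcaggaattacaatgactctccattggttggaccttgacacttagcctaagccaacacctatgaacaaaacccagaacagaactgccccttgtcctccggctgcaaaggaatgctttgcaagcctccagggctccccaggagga

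GAGGAA or its reverse complement began 30 bases before the C1qb start, 193 bases before the C1qc start, and at bases 7 and 23 of the Cfp transcript. It stood in 3 of the 5 macrophage-made promoters with an entry (not in C3ar1 or C5ar1), in 1 of 15 hepatocyte-made genes with an entry (C1ra), and in 28.3% of all 32851 promoters. TTGCNNAA or its reverse complement stood in none of those 5 macrophage-made promoters, in 5 of the 15 hepatocyte-made genes (C1ra, C1s1, C1rl, C3 and C9), and in 10.8% of all promoters. In C3 it began 45 bases before the start and in C9 132 bases before. The 15 hepatocyte-made genes had 17 promoters, and a gene counted with a match in any of its promoters. C1s1 had its match only in promoter 2 of its entries. The percentages over all promoters are instead per promoter, so the 2 kinds of share are not alike. The matches never overlapped each other; they are letters in a window, not binding sites, and no binding was measured here.

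None of the proteases that complete the C1 complex was called. C1ra, for the protease C1r that is activated when C1q binds, measured 341, 400.2 and 327 CPM in heterozygous livers and 439, 419 and 379 CPM in wild-type livers (log2 fold change −0.21 ± 0.12, edgeR adjusted p = 0.544). C1s1, for C1s, which cleaves C4 and C2, measured 559, 631 and 541 CPM in heterozygous and 623, 588 and 552 CPM in wild-type livers (−0.03 ± 0.12, 95% interval −0.29 to 0.24). The interval of C1s1 leaves out a fall of the size seen for C1qb. C1rl, the C1r-like protease, had a log2 fold change of 0.11 ± 0.11. These 3 neighbouring genes of chromosome 6 overlapped between groups. C1ra and C1s1 have the close copies C1rb and C1s2, so the assignment of reads to them is uncertain.

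The lectin pathway starts from mannose-binding lectins, which recognise microbial sugars. Mbl1 measured 270.4, 254 and 242 CPM in heterozygous and 251, 192 and 241 CPM in wild-type livers, and Mbl2 244, 237 and 295 CPM in heterozygous and 209.6, 212 and 242 CPM in wild-type livers. Their log2 fold changes, 0.16 ± 0.13 and 0.23 ± 0.13, were not called (edgeR adjusted p = 0.690 and 0.519), and the groups overlapped for both. The lectin-bound protease gene Masp1 measured 103, 116 and 95.4 CPM in heterozygous livers and 118, 123 and 118 CPM in wild-type livers. Masp1 thus did not overlap between groups, but its log2 fold change of −0.19 ± 0.11 was not called (edgeR adjusted p = 0.530). In RefSeq Masp1 overlaps Rtp4 and Masp2 overlaps Tardbp, so the counting of reads in the shared stretches is uncertain. Masp2, which cleaves C4 and C2 in this pathway, had a log2 fold change of 0.06 ± 0.11.

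C4, C2 and C3 form and feed the convertases on which the pathways converge, and all had negative fold changes without a call. C4b measured 1364, 2211 and 1396 CPM in heterozygous livers and 2606, 2352 and 2251 CPM in wild-type livers. The groups did not overlap, although heterozygous replicate 2 came close to the lowest wild-type library (−0.54 ± 0.19, edgeR adjusted p = 0.263). Without that library the log2 fold change was −0.80 (edgeR adjusted p = 0.173). C3, the central component, was the most abundant complement RNA by CPM, with 5844, 7548 and 4736 CPM in heterozygous and 8936, 6571 and 6980 CPM in wild-type livers (−0.31 ± 0.20, edgeR adjusted p = 0.576). Heterozygous replicate 2 exceeded the lower wild-type libraries in C3, and without wild-type replicate 1 the log2 fold change was −0.15. C2 had −0.27 ± 0.15, and its neighbour Cfb, the alternative pathway counterpart of C2 averaged 1345 ± 172 CPM in heterozygous and 1380 ± 162 CPM in wild-type livers (−0.04 ± 0.14). C4b has a close copy, C4a, which is not among the gene symbols counted, so the assignment of reads to C4b is uncertain.

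**Figure D4:**
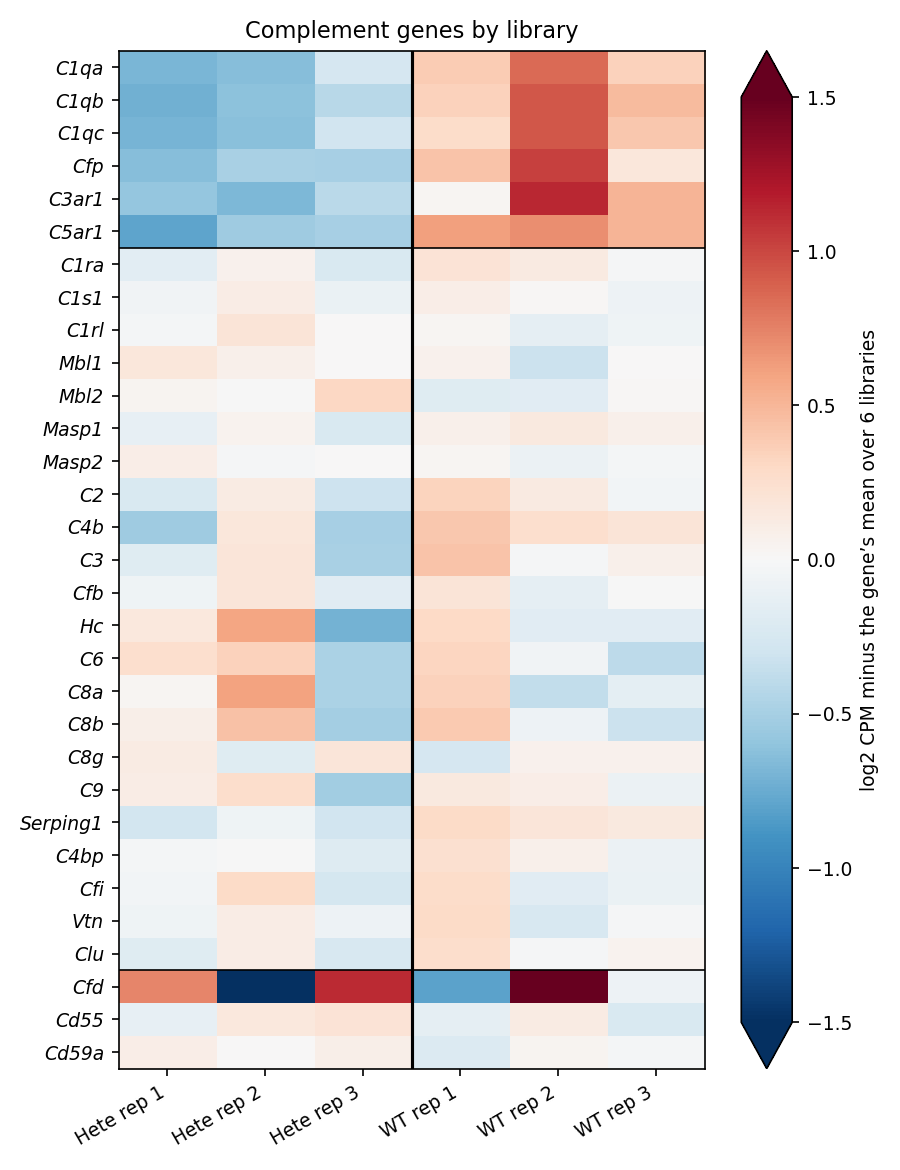
Log2 CPM of each complement gene in each library, minus the gene's mean over all 6; red is above and blue below the mean, lines part the macrophage-made (top), hepatocyte-made (middle) and other genes (bottom), and Cfd runs past the colour scale. The top 6 genes are below their mean in all heterozygous and above it in all wild-type libraries, and the hepatocyte-made genes vary by library within both groups.

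The terminal genes, whose products assemble into the membrane attack complex, varied between libraries more than between groups. Hc, the gene of C5, measured 904, 1225 and 498 CPM in heterozygous and 1004, 723 and 725 CPM in wild-type livers. Its log2 fold change of 0.10 ± 0.32 had a 95% interval of −0.66 to 0.86, so a change of 1.5-fold either way could not be told from none. C8a, for the alpha chain of C8, followed the same order, with 814, 1216 and 576 CPM in heterozygous and 1017, 617 and 722 CPM in wild-type livers. Its neighbour C8b measured 359, 459 and 237 CPM in heterozygous and 444, 321 and 270.5 CPM in wild-type livers. C6, which Kupffer cells of the mouse also express, measured 399.6, 425 and 242 CPM in heterozygous and 420.4, 322 and 254 CPM in wild-type livers, and C9, the pore-forming subunit, 655, 728 and 423 CPM in heterozygous and 672, 651 and 573 CPM in wild-type livers. For these 5 genes heterozygous replicate 2 was the highest library, wild-type replicate 1 the next, and heterozygous replicate 3 the lowest. C8g, the lipocalin-like gamma chain of C8, had another order, with 291, 237 and 304 CPM in heterozygous and 225, 280.3 and 282 CPM in wild-type livers: the libraries highest in C8a were the lowest in C8g. C8g overlaps Fbxw5 and C8a overlaps Fyb2 in RefSeq. Fold changes of the 6 terminal genes ran from −0.07 to 0.14, with edgeR adjusted p-values from 0.894 to 0.988. The summed level of 8 male-biased liver genes was 6681, 7586 and 5409 CPM in heterozygous and 5712, 5290.2 and 5680 CPM in wild-type livers. That sum was highest in heterozygous replicate 2, the library with the most Hc and C8a, where Mup20 alone measured 3891 CPM. The mean log2 level of the 8 genes was instead highest in heterozygous replicate 1, at 8.87 against 8.63 in heterozygous replicate 2. The part of these genes in the terminal levels was not tested.

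**Figure D5:**
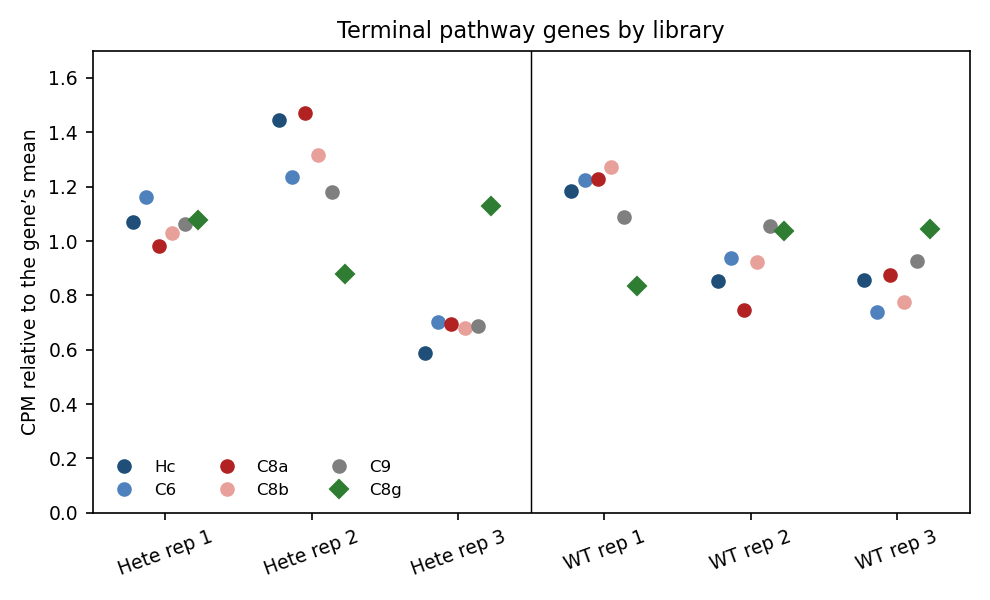
CPM of the terminal complement genes in each library, divided by the gene's mean over all 6 libraries. Heterozygous replicate 2 is highest and heterozygous replicate 3 lowest for Hc, C6, C8a, C8b and C9, while C8g (diamonds) is lowest in wild-type replicate 1 and heterozygous replicate 2.

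Soluble regulators hold the cascade in check. Serping1, the C1 inhibitor that blocks C1r, C1s and the MASP proteases, measured 964, 1114 and 957 CPM in heterozygous livers and 1421, 1325 and 1285 CPM in wild-type livers. The groups did not overlap, and the log2 fold change of −0.41 ± 0.12 was not called in edgeR (adjusted p = 0.160) but was in DESeq2 (−0.40, adjusted p = 0.0432), which brought the DESeq2 calls to 7 of 31. C4bp, which speeds the decay of the C4b convertase, measured 565 ± 39.1 CPM in heterozygous and 630.5 ± 73.7 CPM in wild-type livers (−0.16 ± 0.13). Cfi, the protease that inactivates C3b and C4b, averaged 655 ± 128 CPM in heterozygous and 658 ± 113 CPM in wild-type livers. Vtn and Clu, whose products keep terminal complexes from inserting into membranes, had log2 fold changes of −0.03 ± 0.16 and −0.20 ± 0.14. On the per-length scale Vtn was the most abundant gene of the 31, at 1571 CPM per kb in heterozygous and 1609 CPM per kb in wild-type livers, ahead of C3 at 1177 and 1459 CPM per kb.

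Acute phase genes, which hepatocytes induce in inflammation, and stellate cell markers were set beside these levels. The summed level of 18 acute phase genes, 0 of them called and all with a negative fold change, was 24286, 37075 and 24978 CPM in heterozygous livers and 71020 (replicate 1), 27701 and 37083 CPM in wild-type livers. Wild-type replicate 1 was also the highest library for 9 of the 22 hepatocyte-made genes, C1ra, C2, C3, C4b, Cfb, Serping1, C4bp, Vtn and Clu, and heterozygous replicate 2 for 8 others, while heterozygous replicate 3 was the lowest for 15. With the mean acute phase level as a covariate, 0 hepatocyte-made genes were called, as in the main test without it. The part of the acute phase in their levels was not tested. Of 8 stellate cell markers, all tested, 0 were called and 7 had a negative fold change, and their sum was 346 to 490.2 CPM in heterozygous and 504 to 663 CPM in wild-type livers, without overlap; stellate cells also express Serping1 and C4b, and their part in those levels was not tested. Without wild-type replicate 1 the log2 fold change of Serping1 was −0.35 and that of C4b −0.46 (edgeR adjusted p = 0.318 and 0.475). Complement RNA as a whole took 2.12%, 2.53% and 1.92% of counts in heterozygous and 2.63%, 2.41% and 2.43% in wild-type libraries.

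Cfd, or adipsin, the protease that starts the alternative pathway and is known mainly from adipocytes, had the widest spread of all members. It measured 235, 24.2 and 307 CPM in heterozygous livers and 80.6, 418 and 134 CPM in wild-type livers, and both groups held low and high libraries. Its log2 fold change of −0.16 ± 1.10 had a 95% interval of −3.02 to 2.70, so no group difference was detectable. The adipocyte markers Adipoq and Plin1 had at most 0.666 and 0.242 CPM in any library, both in heterozygous replicate 2, the library with the least Cfd. Cidec, a lipid droplet protein gene of the same list, measured 53.7, 9.99 and 63.0 CPM in heterozygous and 34.8, 82.9 and 59.5 CPM in wild-type livers, lowest and highest in the same libraries as Cfd. The list of 8 adipocyte markers holds Cfd itself; of the others Cidec, Fabp4 and Adrb3 were tested and none was called, and the part of adipocytes in the Cfd levels was not tested. Neither membrane regulator was called: Cd55, which dismantles convertases on the cell surface, measured 15.1, 18.5 and 19.0 CPM in heterozygous and 15.0, 17.9 and 14.1 CPM in wild-type livers (0.16 ± 0.15), and Cd59a, which blocks the attack complex, 53.6 ± 1.77 CPM in heterozygous and 49.2 ± 4.19 CPM in wild-type livers (0.12 ± 0.11). Cd55 overlaps the antisense gene Cd55os, and the sources used here do not give the counter's strand setting.

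The other genes of the pathway were read from a list of 27. Of these 27 further complement genes, 25 were in the table and 20 were tested; 1 fell, 0 rose, and the median log2 fold change was −0.24. The gene that fell was Itgb2, the shared beta chain of the receptors CR3 and CR4 for the C3 fragment iC3b, at 11.8, 13.9 and 15.3 CPM in heterozygous and 36.5, 52.1 and 33.4 CPM in wild-type livers (−1.58 ± 0.19, edgeR adjusted p = 0.0308). Itgam and Itgax, the alpha chains of CR3 and CR4, had −1.21 ± 0.29 and −1.51 ± 0.43 (edgeR adjusted p = 0.0971 and 0.176). Vsig4, the C3b receptor of Kupffer cells, measured 17.0, 19.7 and 13.8 CPM in heterozygous and 24.6, 30.3 and 20.4 CPM in wild-type livers (−0.58 ± 0.18, edgeR adjusted p = 0.185). These 4 receptor genes, named for their small p, were the ones among the 20 tested whose groups did not overlap (20%, against 11.3% of all tested genes with the heterozygous group lower). The groups overlapped for C5ar2, Cr1l and Cd93, further receptor genes of the list. Colec11, a collectin, had −0.40 ± 0.15 and the terminal component gene C7 −0.77 ± 0.38, neither called (edgeR adjusted p = 0.273 and 0.450).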

How the data were processed

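The authors deposited a table of raw counts (whole reads assigned to each gene symbol, not normalized) for 6 liver libraries. Per the labels' protocols, RNA was extracted in TRIzol and 500 ng entered stranded mRNA libraries. Reads were handled with HTSeq 0.9.1, HISAT2 2.2.1.0, Trimmomatic 0.36 and the build GRCm39, per the submitters' processing notes, which as seen here name no annotation or strand setting. The main test was edgeR 4.0.16 (R 4.3.3): filterByExpr, TMM factors, then a robust glmQLFit with glmQLFTest and Benjamini-Hochberg adjustment over all 12706 genes kept. SE is the absolute log2 fold change over the square root of F. DESeq2 1.42.0 and limma 3.58.1 (voom) were alternatives, beside other scalings and filters, a covariate and left-out libraries. The test was checked on simulated counts. Transcript lengths were from GENCODE M21. The complement genes named were the 31 members and, of the further complement genes, the 6 with the smallest p. Also named from that list were the receptor genes C5ar2, Cr1l and Cd93 and the close copies C1rb, C1s2 and C4a. Members and lists were chosen with earlier results of these data known. Same-numbered libraries deviated from their group means with correlations of −0.21, −0.31 and 0.19. With 3 libraries per group, such correlations cannot show whether same-numbered libraries are paired. The labels state no pairing, and the main test has no block.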

Additional observations from a re-analysis of the deposited data

How the results depend on the processing

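In the 18 alternatives the 6 macrophage-made genes kept a negative fold change each time, and 0 members were called higher. The groups did not overlap for these 6 genes, so fits that left out libraries could hardly have turned the sign. The threshold of 0.1 reused the main fit, with the same fold changes. Members called lower numbered 1 with RLE or upper-quartile scaling or at least 1 CPM in 3 samples (C1qb), 4 with no filter on low counts, 7 in DESeq2 (6 macrophage-made, 1 hepatocyte-made), 6 at a threshold of 0.1, 5 with mean acute phase level as covariate, and 0 with a non-robust fit, with limma-voom without robust moderation (chosen after seeing the data), or with both wild-type replicate 1 and heterozygous replicate 2 left out; 8 members had an unadjusted p under 0.05 in the first 2 of these last fits and 11 in the third. Leaving out 1 library gave 0 to 2 members called lower and 0 to 2 further complement genes, against 3 of those in DESeq2, 2 at the threshold of 0.1, and 0 in the plain limma-voom fit and without the 2 libraries.

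Over all genes, lower and higher calls were 36 and 1 with upper-quartile scaling, 190 and 21 with no filter, 47 and 1 with the 1 CPM filter, 452 and 82 in DESeq2, 45 and 1 in limma-voom, 0 and 0 in plain limma-voom, 20 and 0 with a non-robust fit, 292 and 33 at the threshold of 0.1, 262 and 32 with the covariate, and 4 and 0 without the 2 libraries. Leaving out 1 library gave 0 to 107 lower and 0 to 15 higher. With the replicate number as a block, 0 genes were called lower or higher in any list (C1qb adjusted p = 0.177, edgeR), although 1427 had an unadjusted p under 0.05, as did 1686 in plain limma-voom.

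Of 558 member values 35 turned sign, none of them macrophage-made; of these genes C3 was the farthest from 0 in the main test, at −0.31. Cfi was 0.00079 with RLE, 0.0134 with no filter and 0.00080 in DESeq2. With the covariate C1s1 was 0.0712, C3 0.0099, C8g −0.15, C9 0.0656, Cfb 0.18, Cfi 0.30, Vtn 0.25 and Cd59a −0.0032; without the 2 libraries Hc was −0.0350 and Vtn 0.0669. With 1 library left out, C1s1 ran from −0.0942 to 0.0367, Hc from −0.22 to 0.38, C6 from −0.0629 to 0.32, C8a from −0.18 to 0.39, C8b from −0.21 to 0.27, C9 from −0.23 to 0.13, Cfb from −0.14 to 0.0755, Cfd from −0.70 to 0.82, Cfi from −0.17 to 0.16 and Vtn from −0.15 to 0.13. The cause of these shifts was not tested.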
